A study of Mus musculus with 6 samples.

Results

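The 6 genes followed here across the whole study act in retinoic acid handling and response: Stra6, Dhrs3, Crabp2 and the retinoic acid receptor genes Rara, Rarb and Rarg. They were chosen by name from the 22180 genes to which a probe set with a single gene symbol could be assigned, and the choice was made knowing that Crabp2 and Dhrs3 were lower in all treated cultures. The treatment differences of these genes are therefore given as a description, with no test. Each of the 6 genes was measured by 1 probe set: 17517848 for Stra6, 17421312 for Dhrs3, 17398895 for Crabp2, 17256242 for Rara, 17303609 for Rarb and 17322181 for Rarg. The same 6 symbols stood in RefSeq.

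RNA came from C2C12 cells, an established mouse myoblast line that fuses into myotubes when serum is withdrawn, and was hybridised to 6 Affymetrix whole-transcript arrays, 1 for each of 6 culture conditions. In differentiation medium (2%, applied after growth in 10% FBS), cultures received BTZ at 10 nM or TNF-α at 50 ng/ml on day 4 or were left untreated, and all 3 were harvested on day 5. In growth medium (10% FBS), cultures were exposed to BTZ at 10 nM or TNF-α at 50 ng/ml for 24 h, or were left untreated. The labels do not spell out BTZ, an abbreviation usually used for the proteasome inhibitor bortezomib, and TNF-α is an inflammatory cytokine. All samples shared the one cell line, no condition was repeated, and the spread between cultures of a condition is unknown. A level or a difference in bulk RNA cannot tell fewer expressing cells from less RNA per cell.

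Retinol enters cells through carriers such as the membrane receptor STRA6 and is oxidised first to retinaldehyde and then to retinoic acid. DHRS3 runs the first step backwards by reducing retinaldehyde to retinol, and CRABP2 carries retinoic acid to its nuclear receptors. The receptors RARα, RARβ and RARγ bind DNA as pairs with RXR proteins at direct repeats of a short hexamer. In many cell types retinoic acid limits its own action by inducing genes such as Dhrs3 and Cyp26a1. It also induces Rarb, the gene of its receptor RARβ. In myoblast cultures, retinoic acid is known to promote differentiation.

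Promoter sequence is shown for the genes whose windows bear on this circuit. RefSeq windows on GRCm38.p6, from 250 bases before to 50 bases after a gene start, were available as 14 windows for 5 of the 6 genes: 3 for Dhrs3, 4 for Rara, 1 for Rarb, 2 for Rarg and 4 for Stra6. Crabp2 is named only. The windows were searched on both strands for direct repeats of the hexamer AGGTCA or AGTTCA or GGGTCA or GGTTCA with a spacing of 1, 2 or 5 bases, in any order of the hexamers. Of the 14 windows 1 held such a repeat, that of Rarb. This is the retinoic acid response element long known from the Rarb promoter, on the minus strand at chr14:16575513-16575529, from base -53 to base -37 relative to the start, with the 17 bases of the repeat in capitals in chr14:16575493-16575549.
Rarb: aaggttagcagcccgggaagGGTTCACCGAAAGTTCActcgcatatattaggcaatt
The repeat with spacing 5 occurred in 32 of all 32851 RefSeq windows (0.0974%), that with spacing 2 in 0.268% and that with spacing 1 in 0.222%. At least 1 such hexamer, alone or in a repeat, was found in 5 of the 14 windows, against 43.7% of all windows.

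Dhrs3, the gene with the widest range here, had none of these repeats and no hexamer in its 3 windows. The 150 bases before its most upstream start, plus strand, chr4:144892677-144892826, are shown because this is the promoter of the gene that differed most; no letters are in capitals since no searched motif was found there.
Dhrs3: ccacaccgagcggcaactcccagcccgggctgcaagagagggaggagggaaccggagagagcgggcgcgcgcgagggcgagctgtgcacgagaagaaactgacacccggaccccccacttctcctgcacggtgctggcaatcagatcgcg
The NF-kB consensus, named after the factor through which TNF-α signals, matched 1 site of Rara, at chr11:98937469-98937478 on the plus strand, which lay in 2 overlapping windows of that gene and stands in capitals in chr11:98937449-98937498.
Rara: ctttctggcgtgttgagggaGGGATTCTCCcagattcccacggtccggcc
This consensus was met in 4.51% of all windows and in no window of Dhrs3, Rarb, Rarg or Stra6. These matches describe the letters of the windows and say nothing of binding in C2C12 cells.

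The values are log2 signals as deposited. Apart from the summed signals of markers, the signal of a probe set was not set against that of another. The 6 arrays had medians between 5.01 and 5.11. A gene was counted as above the floor when its highest array reached the median of all values, 5.06, which 13652 of the 22180 genes did (61.6%). Of the 6 genes, 5 were above the floor, and Rarb was under it on all 6 arrays. Myoblast markers were well above the floor everywhere: Des, the muscle intermediate filament, ranged from 9.65 to 11.69 and Myod1, the myogenic regulator, from 6.83 to 9.73. All 5 myotube markers were higher in differentiation medium in every pair. At least 2-fold higher were 3 of 5 in the BTZ pair, and 4 of 5 in both the TNF-α and the untreated pair. The fusion factor Mymk was higher by 2.33 in the BTZ pair, 6.35 in the TNF-α pair and 6.10 in the untreated pair. In the BTZ pair Ckm was higher by only 0.04 and Myog by 0.85. Of 11 markers of macrophages, endothelium, adipocytes, epithelium and neurons, 8 were under the floor on all arrays, and the log2 of their summed signal lay between 8.05 and 8.21.

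**Figure D1:**
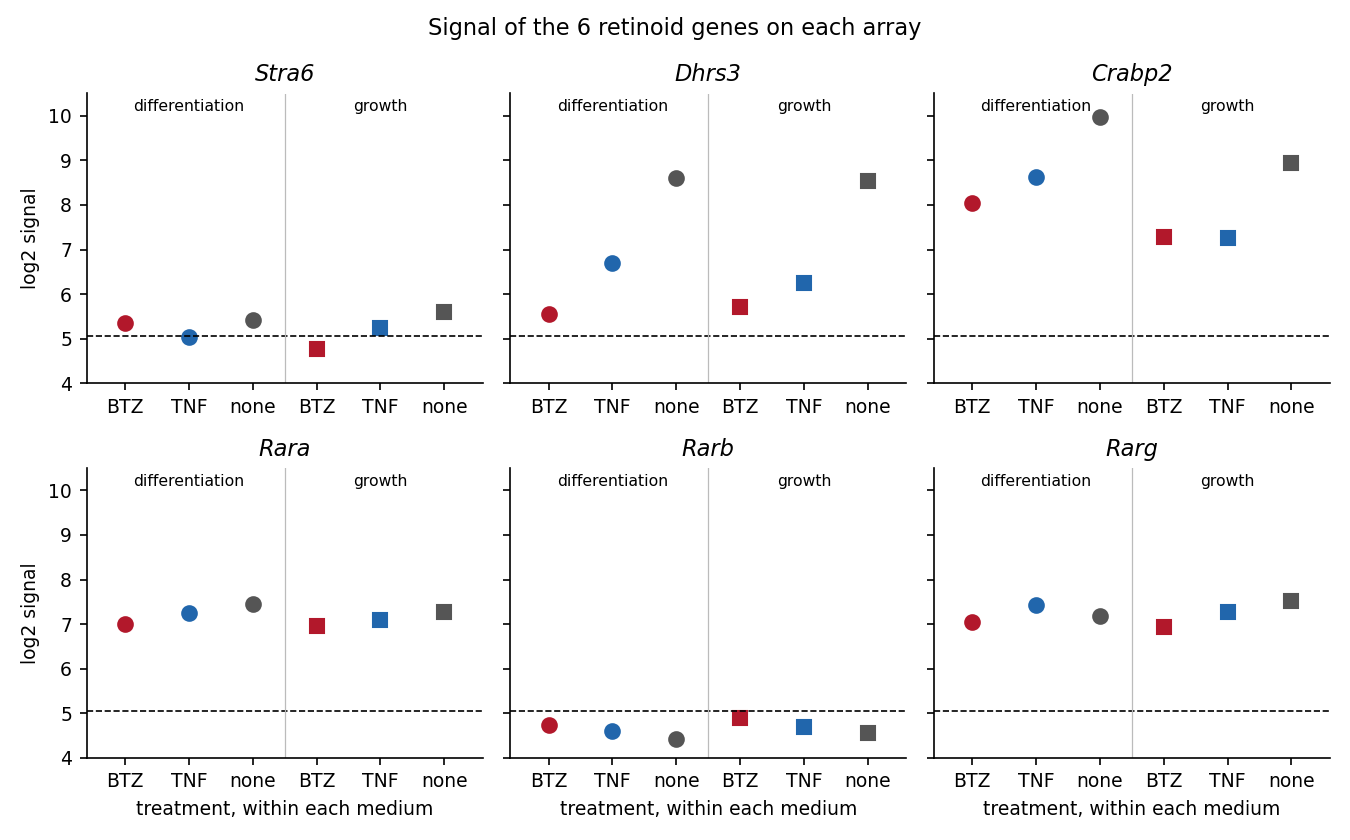
Log2 signal (y axis) of the 6 genes on each of the 6 arrays, with BTZ, TNF-α and untreated cultures (none) in differentiation medium (circles) and growth medium (squares). 1 point is 1 array, and the dashed line is the floor at 5.06; in both media the treated arrays of Dhrs3 and Crabp2 lie below the untreated one, while Rara and Rarg span 0.49 and 0.56.

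Dhrs3, the retinaldehyde reductase, was the gene with the largest differences. In differentiation medium its log2 signal was 5.56 with BTZ and 6.69 with TNF-α, against 8.61 untreated. In growth medium it was 5.71 with BTZ and 6.26 with TNF-α, against 8.53 untreated. All 4 treated arrays were below both untreated arrays, and within each medium the BTZ array was the lower of the 2 treated ones. With BTZ the level was 8.32-fold lower in differentiation medium (log2 difference -3.06) and 7.05-fold lower in growth medium (-2.82). With TNF-α it was 3.80-fold lower in differentiation medium (-1.93) and 4.83-fold lower in growth medium (-2.27). The BTZ signals were close to the floor, where background compresses a fold.

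Crabp2, the cytoplasmic carrier that hands retinoic acid to its receptors, was lower with both agents as well. Its log2 signal in differentiation medium was 8.05 with BTZ and 8.62 with TNF-α, against 9.98 untreated. In growth medium it was 7.29 with BTZ and 7.26 with TNF-α, against 8.93 untreated. Every treated array was thus below the untreated arrays of both media, and the 2 treated arrays in growth medium were nearly equal. The BTZ cultures were 3.80-fold lower in differentiation medium (log2 difference -1.93) and 3.13-fold lower in growth medium (-1.65). The TNF-α cultures were 2.57-fold lower in differentiation medium (-1.36) and 3.18-fold lower in growth medium (-1.67).

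Stra6, the retinol receptor, was close to the floor and reached it on 4 of the 6 arrays. Its log2 signal in differentiation medium was 5.35 with BTZ and 5.05 with TNF-α, against 5.42 untreated. In growth medium it was 4.77 with BTZ and 5.24 with TNF-α, against 5.61 untreated. The differences from untreated cultures were -0.07 with BTZ and -0.37 with TNF-α in differentiation medium, and -0.83 with BTZ and -0.37 with TNF-α in growth medium. None reached 2-fold, and the 2 arrays under the floor (BTZ in growth medium and TNF-α in differentiation medium) give no reliable size.

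The receptors varied little. Rara, which encodes RARα, had log2 signals of 6.99 with BTZ and 7.25 with TNF-α in differentiation medium, against 7.44 untreated, and of 6.95 with BTZ and 7.09 with TNF-α in growth medium, against 7.26 untreated. The treated arrays were a little lower than the untreated one in each medium, with differences of -0.45 for BTZ and -0.19 for TNF-α in differentiation medium and -0.31 for BTZ and -0.17 for TNF-α in growth medium. Rarg, which encodes RARγ, had 7.04 with BTZ and 7.43 with TNF-α in differentiation medium, against 7.19 untreated. In growth medium it had 6.95 with BTZ and 7.26 with TNF-α, against 7.51 untreated. Its treated arrays therefore lay on both sides of the untreated one in differentiation medium and below it in growth medium, where BTZ gave the lowest value (-0.56).

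Rarb, which encodes RARβ and carries the repeat shown above, was under the floor everywhere. Its log2 signals were 4.73 with BTZ and 4.60 with TNF-α in differentiation medium, against 4.42 untreated, and 4.90 with BTZ and 4.69 with TNF-α in growth medium, against 4.56 untreated. The 6 values spanned 0.48 of a log2 unit. Its differences, 0.31 for BTZ and 0.18 for TNF-α in differentiation medium and 0.35 for BTZ and 0.14 for TNF-α in growth medium, all lie between signals under the floor, and no change of Rarb was detectable.

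**Figure D2:**
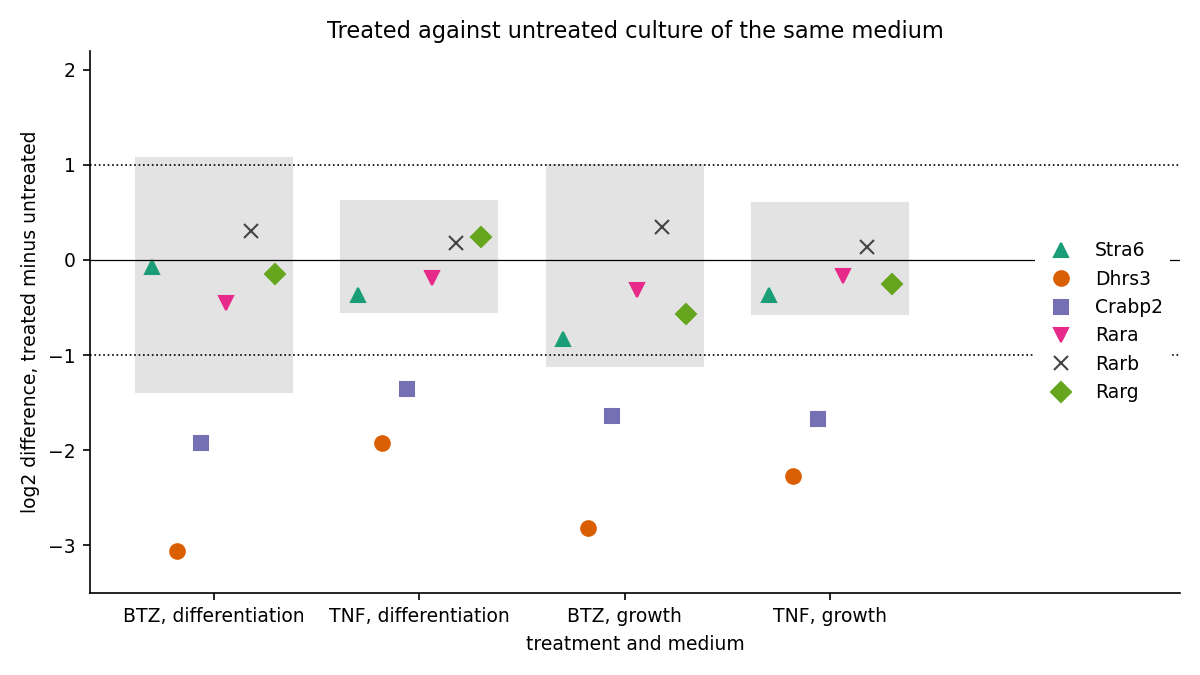
Log2 difference of each of the 6 genes between a treated culture and the untreated culture of the same medium (y axis), for BTZ and TNF-α in differentiation and growth medium (x axis). Grey boxes span the 5th to 95th percentile of all 13652 genes above the floor, and dotted lines mark 2-fold; Dhrs3 and Crabp2 lie below the box and below -1 in all 4 comparisons, and Rarb (crosses) is under the floor.

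A gene was called when it was above the floor and differed at least 2-fold. By that measure 2 of the 5 genes above the floor, Crabp2 and Dhrs3, were lower and 0 were higher in each of the 4 treatment comparisons. Among all genes above the floor, BTZ in differentiation medium went with 8.91% lower and 6.05% higher, and TNF-α in differentiation medium with 0.879% lower and 2.01% higher. BTZ in growth medium went with 6.16% lower and 4.99% higher, and TNF-α in growth medium with 1.02% lower and 0.982% higher. More genes of the array thus passed with BTZ than with TNF-α in both media. Since the genes were chosen on these contrasts, nothing is read from their counts.

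Dhrs3 and Crabp2 belonged to 31 genes (0.227%) that were at least 2-fold lower in all 4 treatment comparisons. Ordered by the smallest of the 4 differences in each gene, Dhrs3 stood at place 5 and Crabp2 at place 14. The carbonic anhydrase genes Car3 and Car2, the small proteoglycan genes Omd, Aspn, Ogn, Dcn and Prelp, and the collagen genes Col3a1 and Col6a2 were also among the 31, and are named here after their values were seen. Rara and Stra6 were lower by any amount in all 4 comparisons, together with Dhrs3 and Crabp2, as were 14.2% of all genes above the floor. Because Crabp2 and Dhrs3 were chosen as lower, the median difference of the 5 genes above the floor is the lowest value among the remaining genes. With BTZ in differentiation medium it was that of Rara (-0.45). In the other comparisons it was that of Stra6: -0.37 for TNF-α in differentiation medium, and -0.83 for BTZ and -0.37 for TNF-α in growth medium. The medians of all genes lay between 0.003 and 0.03, and nothing is read from the contrast. The BTZ and TNF-α comparisons of a medium share its untreated array and are not independent of each other.

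Muscle markers moved beside these genes. The 4 myoblast markers (Myod1, Myf5, Des and Cdh15) had differences below 0 in all 4 treatment comparisons, and 3 of 4 were at least 2-fold lower with BTZ in differentiation medium, 1 with TNF-α in differentiation medium, 3 with BTZ in growth medium and 0 with TNF-α in growth medium. The log2 of their summed signal was 10.97 with BTZ and 11.98 with TNF-α in differentiation medium, against 12.34 untreated, and 10.22 with BTZ and 10.95 with TNF-α in growth medium, against 11.41 untreated. This sum mainly follows Des, which alone was 10.77 in untreated growth medium. Of the 5 myotube markers, 5 were at least 2-fold lower with BTZ in differentiation medium (median -3.77) and 0 with TNF-α there (median -0.31). In growth medium 0 of 5 were 2-fold lower with BTZ (median -0.52) or with TNF-α (median -0.74), and all 5 had differences below 0 in each of the 4 comparisons. In growth medium Myh3 was under the floor, at 3.86 with BTZ and 3.62 with TNF-α, against 4.38 untreated. Ckm (5.25 to 5.51) and Mymk (5.10 to 5.56) lay close to the floor there. The growth medium differences of these genes, and the medians that rest on them, give no reliable size. The part of these marker differences in the lower Dhrs3 and Crabp2 was not tested.

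The size of a treatment difference could be compared between media and between agents as values without error. The TNF-α difference in differentiation medium minus that in growth medium was 0.35 for Dhrs3 and 0.31 for Crabp2, and the same quantity for BTZ was -0.24 for Dhrs3 and -0.28 for Crabp2. These values are smaller in size than each of the treatment differences of both genes. BTZ minus TNF-α was -1.13 in differentiation medium and -0.54 in growth medium for Dhrs3, and -0.57 and 0.02 for Crabp2. Of the receptors, BTZ minus TNF-α was -0.39 in differentiation medium and -0.32 in growth medium for Rarg, and -0.26 and -0.14 for Rara.

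The effect of the medium was the one contrast that could be tested and that had not been used to choose the genes. It was estimated with limma over all 13652 genes above the floor in a fit with terms for medium and treatment, which treats the 3 treatment states as blocks and leaves 2 residual degrees of freedom. A treatment effect that differs between the media also enters this residual. The differentiation cultures were harvested on day 5, and the labels give no day for the growth cultures. What is called the effect of the medium can therefore not be told apart from one of time in culture. Crabp2 was higher in differentiation than in growth medium, by 1.05 ± 0.166 (SE, 3 pairs of arrays, limma with Benjamini-Hochberg adjustment over all genes, adjusted p = 0.0327). It was higher in 3 of 3 pairs, by 0.76 (1.69-fold) in the BTZ pair, 1.35 (2.55-fold) in the TNF-α pair and 1.04 (2.06-fold) in the untreated pair. The fit called 1.56% of genes higher and 2.47% lower in differentiation medium. Over the alternative settings the adjusted p of Crabp2 from limma ran from 0.0012 to 0.180; the highest was reached without the 2 TNF-α arrays, where the effect was 0.90 and was no longer called.

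The other genes passed no test of the medium. Dhrs3 differed by 0.12 ± 0.166 (limma, adjusted p = 0.715), with pair differences of -0.15, 0.43 and 0.09 for BTZ, TNF-α and untreated cultures. Rara differed by 0.13 ± 0.135 (limma, adjusted p = 0.632), Rarg by -0.02 ± 0.160 (limma, adjusted p = 0.959) and Stra6 by 0.06 ± 0.204 (limma, adjusted p = 0.888). The pair differences of Rarg were 0.10 with BTZ, 0.17 with TNF-α and -0.32 untreated, and those of Stra6 were 0.57, -0.19 and -0.19, so both genes had pairs of either sign. Rarb, under the floor, was not fitted. The residual SD was 0.209 for Crabp2, 0.209 for Dhrs3, 0.0523 for Rara, 0.186 for Rarg and 0.312 for Stra6, against a median of 0.185 over all genes.

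By the 2-fold measure, 1 of the 5 genes above the floor (Crabp2) was higher in differentiation medium in the TNF-α and untreated pairs and 0 in the BTZ pair, and 0 were lower in any pair. The background was 1.54% higher and 2.13% lower in the BTZ pair, 5.85% higher and 4.85% lower in the TNF-α pair, and 4.83% higher and 3.92% lower in the untreated pair. Rara was also higher in 3 of 3 pairs, by 0.04 with BTZ, 0.16 with TNF-α and 0.18 untreated. Of the muscle markers in the untreated pair, 4 of 5 myotube genes and 2 of 4 myoblast genes passed 2-fold towards differentiation medium. The myotube genes were Myh3 (6.67), Mymk (6.10), Acta1 (5.27) and Myog (4.19), with Myh3 under the floor in growth medium (4.38). The myoblast gene Myf5 went the other way, at -0.91 in the untreated and -1.59 in the TNF-α pair, and differed by 0.72 in the BTZ pair. The part of myotube formation in the higher Crabp2 was not tested.

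**Figure D3:**
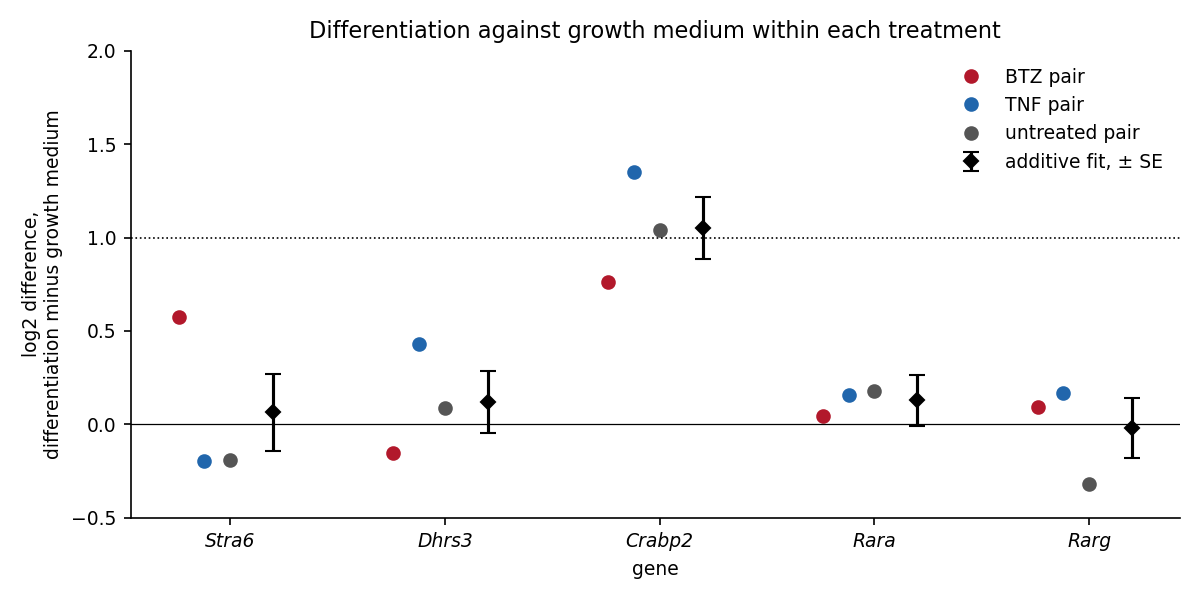
Log2 difference between differentiation and growth medium (y axis) for the 5 genes above the floor, as single pairs with BTZ, TNF-α or no treatment (coloured points) and as the effect of the additive limma fit with its standard error (black diamonds). The dotted line marks 2-fold; Crabp2 is above 0 in all 3 pairs (0.76, 1.35 and 1.04), while the fitted values of the other 4 genes lie between -0.02 and 0.13.

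The profiles most like those of the 2 genes with a range of at least 1 log2 unit were found among 12404 named genes above the floor, by the root mean square difference over the 6 arrays after each gene was centred on its own mean. Nearest to Crabp2 (range 2.71) were Coro6 at 0.276, Ecm2 at 0.292 and Medag at 0.295. Ecm2 was above the floor only in untreated differentiation medium, and lay between 3.66 and 4.84 on the other arrays. Its distance and place thus rest mostly on signals under the floor and give no reliable likeness. Coro6 encodes a coronin and Ecm2 a matrix protein. Nearest to Dhrs3 (range 3.06) were Ly6c2 at 0.334, Car2 at 0.347 and Prelp at 0.361. Ly6c2 encodes a surface antigen, Car2 a carbonic anhydrase and Prelp a leucine-rich matrix proteoglycan. Crabp2 was 42nd nearest to Dhrs3 and Dhrs3 443rd nearest to Crabp2, at a distance of 0.661. The 2 profiles shared their low treated arrays and parted at the medium, since Dhrs3 stood at 8.61 and 8.53 in the untreated cultures of differentiation and growth medium while Crabp2 stood at 9.98 and 8.93. Rara, Rarg and Stra6 had ranges of 0.49, 0.56 and 0.83 and were not ranked in this way.

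**Figure D4:**
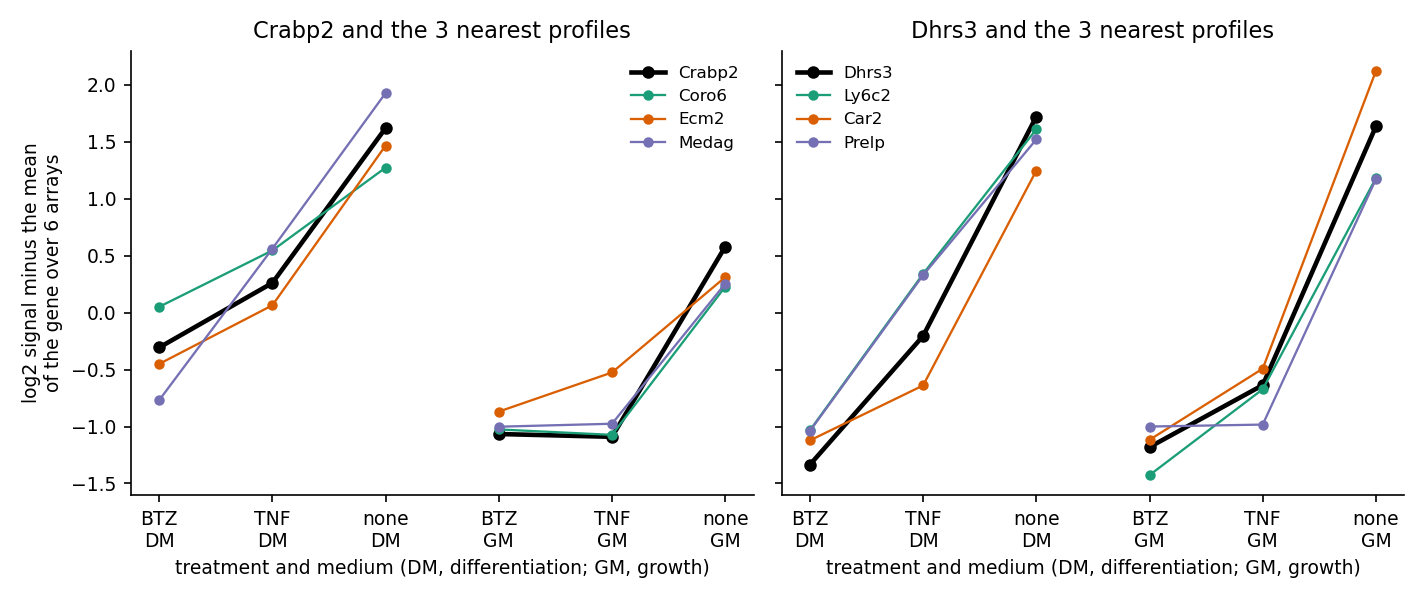
Log2 signal minus the gene's mean over the 6 arrays (y axis) for Crabp2 (left) and Dhrs3 (right) in black, each with its 3 nearest genes in colour, over BTZ, TNF-α and untreated (none) cultures of differentiation (DM) and growth (GM) medium. All 8 lines are highest on an untreated array in each medium. Crabp2 and its 3 nearest genes were higher in untreated differentiation medium than in untreated growth medium, Crabp2 by 1.04. Ecm2 was under the floor on every array except that of untreated differentiation medium. Dhrs3 and Crabp2 were chosen as lower when treated, and the other genes as most like them on these same arrays. The likeness of the lines thus follows from the choice, and nothing is read from it.

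Other genes of retinoid transport, metabolism and action were given from a list of 57 genes, of which 53 were measured and 35 were above the floor. With BTZ in differentiation medium 4 were at least 2-fold lower and 2 higher, against 8.91% and 6.05% of all genes above the floor. With TNF-α in differentiation medium 2 were lower and 0 higher, against 0.879% and 2.01%. With BTZ in growth medium 3 were lower and 3 higher, against 6.16% and 4.99%. With TNF-α in growth medium 0 were lower and 0 higher, against 1.02% and 0.982%. With so few genes called, nothing is read from these counts. The medians of the 35 genes lay between -0.02 and 0.04 in the 4 comparisons, near those of all genes.

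Among the enzymes that make retinoic acid, Rdh10, the main retinol dehydrogenase of embryonic tissues, had 7.81 with BTZ and 7.76 with TNF-α in differentiation medium, against 7.71 untreated. In growth medium it had 6.98 with BTZ and 7.47 with TNF-α, against 7.73 untreated, and no comparison reached 2-fold. Aldh1a3, a retinaldehyde dehydrogenase, was 5.16 with BTZ and 4.94 with TNF-α in differentiation medium, against 5.95 untreated, and 5.80 and 5.84 in growth medium, against 5.99 untreated. Its TNF-α difference in differentiation medium, -1.01, was just past 2-fold and ended under the floor. Aldh1a1 lay between 5.21 and 5.84 on the 6 arrays, and Aldh1a2 between 3.95 and 4.49, under the floor. Rdh5, an oxidoreductase of the visual cycle, differed by -1.84 with BTZ in differentiation medium. Adh7, an alcohol dehydrogenase that can oxidise retinol, was higher with BTZ by 1.82 in differentiation and 1.34 in growth medium but differed by -1.39 with TNF-α in differentiation medium. Akr1b10, an aldo-keto reductase that can reduce retinaldehyde, was higher with BTZ in growth medium by 1.34.

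Genes of retinoic acid breakdown gave little signal. Cyp26a1, the hydroxylase most closely tied to retinoic acid exposure, was under the floor on all arrays, with 4.09 with BTZ and 4.37 with TNF-α in differentiation medium, against 5.00 untreated. In growth medium it had 4.51 with BTZ and 4.40 with TNF-α, against 4.41 untreated. Cyp26c1 was also under the floor, between 4.15 and 4.61. Cyp26b1, a related hydroxylase, was above the floor at 5.50 with BTZ and 5.68 with TNF-α in differentiation medium, against 5.64 untreated, and at 5.42 and 5.87 in growth medium, against 5.96 untreated. None of the 3 differed by 2-fold in any treatment comparison.

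None of the 3 RXR genes, which encode the partners of the retinoic acid receptors, differed by 2-fold with either agent. Rxra, which encodes RXRα, had 7.80 with BTZ and 7.66 with TNF-α in differentiation medium, against 7.67 untreated, and 7.26 and 6.87 in growth medium, against 7.19 untreated. Rxrb lay between 6.21 and 6.55 on the 6 arrays, and Rxrg between 4.22 and 4.76, under the floor. Ppard, a lipid-activated nuclear receptor to which retinoic acid has been reported to bind, was higher with BTZ by 1.34 in differentiation and 1.30 in growth medium. Fabp5, the gene of its proposed carrier (mean of 4 probe sets), differed the other way with BTZ, by -1.01 in differentiation and -2.10 in growth medium; in differentiation medium the 3 arrays lay close to or under the floor (3.95 with BTZ and 5.17 with TNF-α, against 4.96 untreated). Lpl, a lipase, differed by -1.19 with BTZ in growth medium (4.29 against 5.48 untreated). Cd36, a lipid receptor, differed by -1.76 with BTZ in differentiation medium (3.63 against 5.39 untreated). Both ended under the floor. Tbl1xr1, a subunit of corepressor complexes, differed by -1.11 and -1.34 with BTZ in differentiation and growth medium.

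**Figure D5:**
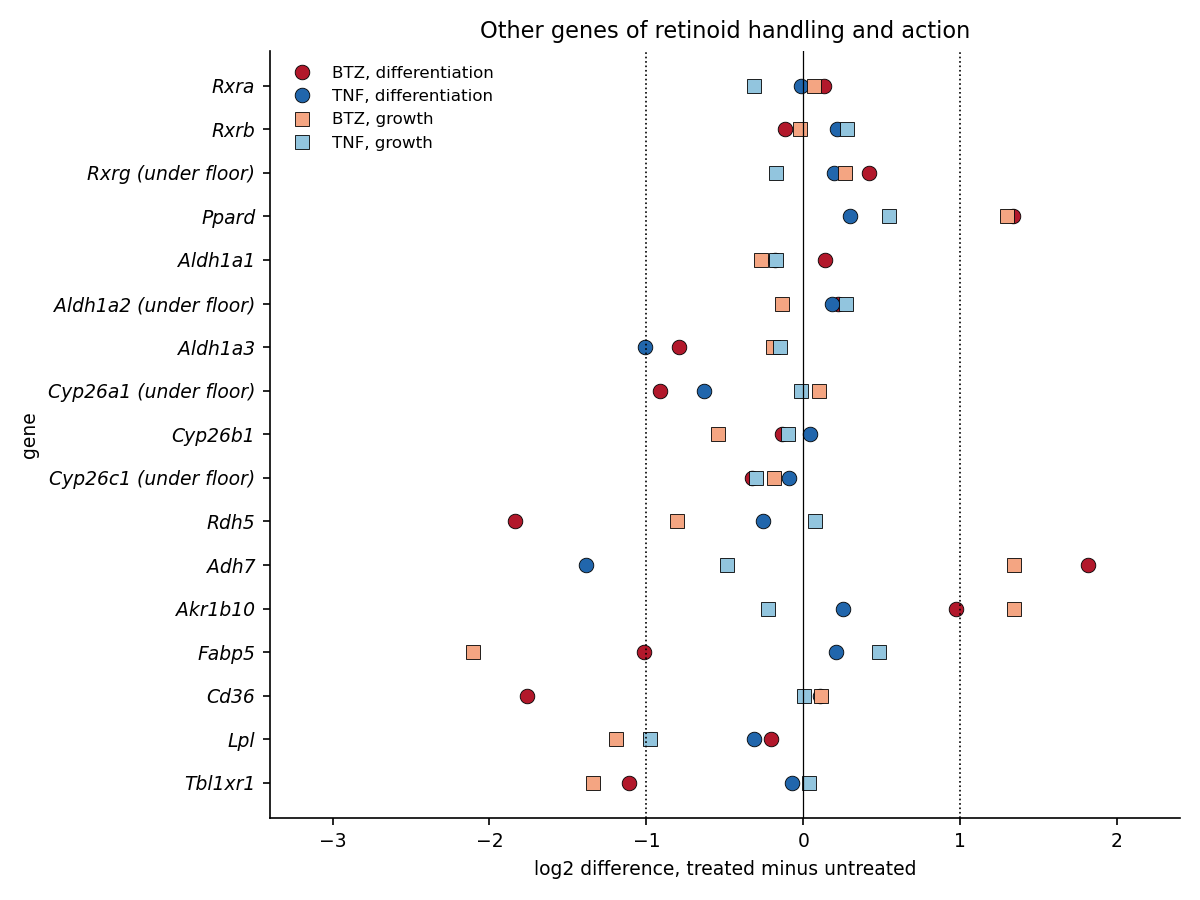
Log2 difference between treated and untreated cultures of the same medium (x axis) for 17 genes of retinoid handling and action other than the 6 described, with circles for differentiation and squares for growth medium. Dotted lines mark 2-fold and genes under the floor on all arrays are marked; Ppard and Adh7 are above 1 with BTZ in both media, and Fabp5 and Tbl1xr1 below -1.

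Genes reported elsewhere to respond to retinoic acid were taken from a list of 34, of which 29 were measured and 20 were above the floor. With BTZ in differentiation medium 3 were at least 2-fold lower and 0 higher, against 8.91% and 6.05% of all genes above the floor. With BTZ in growth medium 1 was lower and 1 higher, against 6.16% and 4.99%. With TNF-α 0 of 20 passed in either medium. The all-gene shares there were 0.879% lower and 2.01% higher in differentiation medium, and 1.02% and 0.982% in growth medium. With so few genes called, nothing is read from these counts. The lower ones with BTZ in differentiation medium were Tgm2, a transglutaminase, at -1.92, the Notch ligand gene Dll1 at -1.13 and the transcription factor gene Foxa1 at -1.12. Foxa1 ended under the floor there, at 4.58 against 5.71 untreated. The lower one with BTZ in growth medium was the homeobox gene Meis2 at -1.76. The higher one was Cdkn1a, a cell cycle inhibitor also induced by p53, at 1.44 with BTZ in growth medium. The medians of the list were -0.16 for BTZ and -0.12 for TNF-α in differentiation medium and 0.04 for BTZ and 0.02 for TNF-α in growth medium. Dhrs3 and Crabp2 are known retinoic acid-responsive genes in other systems, but no retinoic acid was measured or added here.

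Between media, 1 of the 35 other retinoid genes passed the limma fit as higher in differentiation medium and 1 as lower. Among all genes above the floor the shares were 1.56% higher and 2.47% lower. Rdh5 was higher by 1.61 (limma, adjusted p = 0.0236) and Fabp5 lower, at -1.97 (limma, adjusted p = 0.0252). Rxra missed the threshold at 0.60 (limma, adjusted p = 0.0816). Of the 20 response genes, Bhlhe40, a transcriptional repressor, was higher by 1.09 (limma, adjusted p = 0.0112) and Cdkn1a by 2.28 (limma, adjusted p = 0.0433), while Tgm2 missed the threshold at 1.67 (limma, adjusted p = 0.0554). The Crabp2 effect of 1.05 was smaller in size than those of Rdh5 and Fabp5.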

How the data were processed

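Per the labels' protocols, total RNA was extracted with TRIzol, amplified and labelled with biotin by a whole-transcript kit. The deposited values are 1 log2 signal per probe set and array; that they are log2 is taken from their range. Detection calls were not used. Neither summarisation, normalisation nor a genome build was given in the sources used. Of 41345 probe sets, 23521 had 1 gene symbol, 1814 had several and 16010 had none. Probe sets were averaged per gene, and no further scaling was applied. The nearest profiles are those of the 3 other genes at the smallest distance. The floor, the 2-fold measure and the limma fit (limma 3.58.1 in R 4.3.3, trend on the mean level, calls at 0.05) are described beside the results. The fit was also run on simulated data with a medium effect and no treatment effects. That run does not show how the fit behaves where a treatment effect differs between the media. The genes, lists and tests were chosen with earlier results of these data known. From the lists, the text names those past 2-fold in any treatment comparison (at most 12 per list) and always the RXR, CYP26 and ALDH1A genes; Rdh10, genes named only between media and the examples from the 31 were added after their values were seen. Alternatives were array scaling, the floor, the choice of probe set, the trend and leaving out an agent's arrays. With 1 array per condition, precision is limited by their number.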

Additional observations from a re-analysis of the deposited data

Results flagged for a closer look

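Some differences had opposite signs in the 2 media. Each rests on 4 single arrays, the difference between media was not tested, and the values are the effect in differentiation medium minus that in growth medium on the log2 scale. Among the 6 genes this held for Rarg with TNF-α (0.49), whose difference from the untreated culture was 0.24 in differentiation medium and -0.25 in growth medium. Of the 35 other retinoid genes above the floor, 15 had opposite signs with TNF-α and 10 with BTZ, and of the 20 response genes 11 and 6. The share among all genes above the floor was not counted, and small differences can take either sign. Nothing is therefore read from these counts about the 2 lists. Values are given here only for those named in the report. With TNF-α these were Rdh5 (-0.33), Akr1b10 (0.47), Tbl1xr1 (-0.11), Rdh10 (0.30), Cyp26b1 (0.14), Tgm2 (-0.78) and Cdkn1a (-0.85). With BTZ they were Cd36 (-1.87), Rdh10 (0.85), Aldh1a1 (0.41), Cdkn1a (-2.27) and Dll1 (-1.19). In Cd36 the growth medium arrays were all under the floor.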

How the results depend on the processing

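All 126 recomputed differences of the 6 genes and all 70 recomputed counts of them kept their direction and their side of the threshold. The choice of probe set could not change any of these, since each of the 6 genes had 1 probe set. A changed floor decides only which genes are counted and leaves their differences as they are. Only the array scalings could therefore move a difference. Of 39 recomputed medium effects 38 kept their side of the threshold, but 3 that were not called changed sign: Dhrs3 without the TNF-α arrays (-0.03), Rarg after quantile normalization (0.0066) and Stra6 without the BTZ arrays (-0.19). Shifting the arrays to the same median moved a difference by at most 0.0593 (Rara) and quantile normalization by at most 0.105 (Dhrs3), with 0 of 42 signs changed under either. The effect that lost its call was that of Crabp2 without the 2 TNF-α arrays, 0.90 (limma, adjusted p = 0.180). That fit called 29 genes higher and 89 lower. The fit without the 2 BTZ arrays, which has as many arrays, called 1657 and 1552, and that of all 6 arrays 213 and 337. The reason for the lost call was not tested. With TNF-α in differentiation medium, the retinoid list had 1 lower gene after the median shift and 1 after quantile normalization, in place of 2, and the response list had 1 after quantile normalization, in place of 0. Between media with BTZ, the response list had 2 higher genes after the median shift, in place of 1; the cause was not tested. Stra6 could not be fitted with the floor at the 60th percentile, and Rarb only without a floor (-0.13, limma, adjusted p = 0.693). The medium fit pairs arrays by treatment; replicate numbers gave no pairing, since each condition had 1 array. Differences close to 2-fold or to the floor have no replicate check.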
